A study of Homo sapiens with 33 samples.

Results

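The IGF and insulin receptor axis was followed through 10 genes out of the 56470 gene symbols of an RNA-seq count table. They are the receptors IGF1R, IGF2R and INSR, the adaptors IRS1 and IRS2, and the binding proteins IGFBP2, IGFBP3, IGFBP5, IGFBP6 and IGFBP7. They were taken by gene symbol, and all 10 were found. The set was selected on measured values of these same counts, in particular the large rise of IGFBP5 in cetuximab-treated SCC6, so that rise is described here and not tested.

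The counts come from SCC1 (UM-SCC-1), SCC6 (UM-SCC-6) and SCC25, 3 established head and neck squamous cell carcinoma (HNSCC) lines that are sensitive to cetuximab, an antibody that blocks EGFR. Each line was given 100 nM cetuximab (CTX) or PBS as untreated control, beginning 24 h after seeding and renewed every day. RNA was taken from PBS cultures on days 0 to 5 and from CTX cultures on days 1 to 5, which gave 6 PBS and 5 CTX libraries per line and 33 in all. Each day holds 1 library per line and treatment, except that the labels give day 2 for 2 CTX libraries of SCC6 and day 1 for none, and these are called 2a and 2b. The 5 days therefore stand in for replicates, and the errors below are the spread over days, which holds any change with time as well as technical noise. Per the labels, SCC1 and SCC25 were grown with hydrocortisone, at different concentrations, and SCC6 without it and with added non-essential amino acids, so line and medium cannot be told apart.

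Library totals ranged from 28508758 to 80727478 estimated counts, and the 2 deepest were the SCC6 CTX libraries of days 5 and 4, at 75170052 and 80727478, which had a flow cell to themselves. Flow cell and treatment overlapped only in part in every line. A list of 13 genes of ERK output, which EGFR drives, served as a check of the drug, chosen with earlier results of these data known. With CTX, 11 of 13 were called lower in SCC1, 12 of 13 in SCC6 and 11 of 13 in SCC25. Among all genes tested, 3975 of 17984, 2530 of 17387 and 1815 of 19101 were called lower. Of 9 squamous epithelial markers, all were detected, although in SCC6 the basal keratins KRT5 and KRT14 lay between 1.78 and 14.6 CPM and between 1.87 and 12.5 CPM, and DSG3 between 1.01 and 5.23 CPM. Levels are given as CPM, a gene's counts relative to the library total, with TMM scaling over all 33 libraries.

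IGF1R and INSR are receptor tyrosine kinases that bind IGF1, IGF2 and insulin and signal through the docking proteins IRS1 and IRS2 to PI3K, AKT and ERK. IGF2R, the cation-independent mannose-6-phosphate receptor, has no kinase and carries IGF2 to lysosomes for breakdown. The IGF-binding proteins are secreted and hold the ligands away from or close to the receptors, while IGFBP7 binds IGFs only weakly. In epithelial tumours this axis is known as a route of growth signalling that runs beside EGFR and shares its downstream kinases.

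The promoter sequences of 9 of the 10 genes were found in RefSeq on GRCh38.p14. The 3 shown are those of the genes with the strongest change in a binding protein in SCC6 and SCC1 and of the receptor that changed in both lines. Each is the 250 bases before the annotated start, 5′ to 3′, and capitals mark matches to GCCNNNGGC, the letters recognised by AP-2 factors.

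IGFBP5, chr2:216695550-216695799, minus strand: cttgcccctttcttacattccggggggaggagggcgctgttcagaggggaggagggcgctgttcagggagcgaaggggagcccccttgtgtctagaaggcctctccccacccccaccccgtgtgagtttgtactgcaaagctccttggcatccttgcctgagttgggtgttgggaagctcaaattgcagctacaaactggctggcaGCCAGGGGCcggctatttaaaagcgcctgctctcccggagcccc

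IGFBP3, chr7:45921273-45921522, minus strand: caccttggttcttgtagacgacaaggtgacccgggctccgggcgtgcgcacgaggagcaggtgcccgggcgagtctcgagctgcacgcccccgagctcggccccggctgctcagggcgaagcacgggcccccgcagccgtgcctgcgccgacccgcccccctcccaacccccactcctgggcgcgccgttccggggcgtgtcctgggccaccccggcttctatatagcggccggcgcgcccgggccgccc

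IGF1R, chr15:98648289-98648538, plus strand: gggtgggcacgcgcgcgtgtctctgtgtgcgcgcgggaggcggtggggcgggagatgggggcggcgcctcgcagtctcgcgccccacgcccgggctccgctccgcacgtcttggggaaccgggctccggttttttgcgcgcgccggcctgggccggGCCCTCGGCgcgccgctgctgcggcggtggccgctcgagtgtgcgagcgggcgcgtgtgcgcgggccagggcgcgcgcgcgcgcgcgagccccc

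IGFBP5 held 1 AP-2 match, 44 to 36 bases before its start, and IGF1R 1 match, 94 to 86 bases before its start. No match to these letters lies in the IGFBP3 window. Among the other genes, INSR and IRS1 held 1 match each and IGFBP6 2 that overlap, compared with 19.8% of 35116 promoter entries with at least 1 on either strand. AP-1 letters (TGANTCA, both strands, 6.57% of entries) and the exact TATA box letters TATAAA (given strand, 6.8%) were in no window of the 9 genes. Other spellings of a TATA box were not searched, so its absence is not shown. FOXO letters (GTAAACA, both strands, 2.98%) were found in IGFBP6 only. The windows of IGFBP5, IGFBP3 and IGF1R were 61.2%, 76% and 81.2% G or C, against a median of 58% over all entries.

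The untreated lines were compared first, over PBS days 1 to 5, to see which members of the axis each line expressed. SCC25 had the highest levels of IGF1R, IRS1, IGFBP2, IGFBP3 and IGFBP6, SCC1 of IGF2R, and SCC6 of IRS2, while IGFBP7 was abundant in SCC1 and SCC25 and low in SCC6. IGFBP5 is left out of tests between lines, since its SCC6 values took part in the choice of genes and it was all but absent from SCC1. Of the other 9 genes, 9 differed between SCC1 and SCC6 (66.6% of all genes tested did), 7 between SCC1 and SCC25 (66.5%) and 9 between SCC6 and SCC25 (69.9%), by edgeR's quasi-likelihood test in a fit of 30 libraries. The counts of members called are set against these shares, which are high for any gene.

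IGF1R averaged 86.4 CPM ± 14 (SD, n = 5) in SCC1, 131 ± 13.1 in SCC6 and 162 ± 7.19 in SCC25. Each step in that order was called, the smaller one, from SCC6 to SCC25, at 1.23-fold (adjusted p = 0.003, edgeR). With the flow cell as a covariate that step turned to 0.26 on the log2 scale in favour of SCC6 and was not called. The PBS libraries of SCC6 and SCC25 share no flow cell. The adjusted step therefore rests on the few libraries that link flow cells, such as SCC6 PBS day 1 and SCC1 PBS day 5. IGF2R ran in another order, with 637 ± 70.6 CPM in SCC1, 433 ± 17.2 in SCC25 and 202 ± 20.8 in SCC6. INSR was low in every line, at 8.44 ± 0.724 in SCC1, 10.6 ± 1.31 in SCC6 and 8.23 ± 0.521 in SCC25. SCC1 and SCC25 were not called different for it, and the calls that set SCC6 above them were lost without SCC6 PBS day 5 (adjusted p = 0.092 against SCC1 and 0.083 against SCC25), the latter also without SCC25 PBS day 1 (0.054), and both with the flow cell as a covariate (0.53 and 0.68). That covariate also ended the calls of IRS2 between SCC1 and SCC25 (adjusted p = 0.29) and of IGFBP6 between SCC1 and SCC6 (0.21).

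Both adaptors differed between every pair of lines. IRS1 averaged 75.9 CPM ± 5.48 in SCC25, 18.1 ± 5.76 in SCC6 and 8.21 ± 0.796 in SCC1, a 9.23-fold gap between the outer lines. IRS2 averaged 57.8 ± 5.85 in SCC6, 38.2 ± 3.21 in SCC25 and 23.3 ± 2.13 in SCC1.

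IGFBP2 differed widely between the lines, with 31.8 CPM ± 13 in SCC25, 2.2 ± 0.689 in SCC6 and 0.157 ± 0.0947 in SCC1, where it rested on 2 to 14 counts per PBS library of days 1 to 5. IGFBP3 averaged 352 ± 138 in SCC25, 163 ± 30.6 in SCC6 and 23 ± 12 in SCC1. IGFBP6 averaged 170 ± 48.9 in SCC25, 24.4 ± 5.62 in SCC1 and 13.4 ± 3.76 in SCC6. IGFBP7 averaged 171 ± 23.9 in SCC1 and 160 ± 6.48 in SCC25, which the test did not call different, and 10.8 ± 1.79 in SCC6. IGFBP5 was low in all untreated lines, at 2.96 ± 0.877 CPM in SCC6 and 1.28 ± 0.311 in SCC25, with no test between them. In SCC1 a total of 1 count was found over 11 libraries, in PBS day 5, and a count of 0 allows up to 3 counts, or 0.0613 to 0.0763 CPM by library.

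Because transcripts differ in length, the binding proteins were compared with each other only as CPM per kb of the canonical transcript. The sums and shares cover the 5 binding proteins among the 10 genes and leave out IGFBP4. With PBS, IGFBP4 was 203 ± 26.1 CPM in SCC1, 14.5 ± 4.7 in SCC6 and 141 ± 11.2 in SCC25, before any correction for length. In SCC1 with PBS, IGFBP7 made up 77.6% of the summed level of the 5 binding protein genes, at 120 CPM per kb ± 16.7. In SCC6 with PBS, IGFBP3 made up 72.5%, at 62.6 ± 11.7. In SCC25 with PBS the sum was the highest, 448.8 CPM per kb, and was shared by IGFBP6 (39.9%), IGFBP3 (30.1%) and IGFBP7 (25%).

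**Figure D1:**
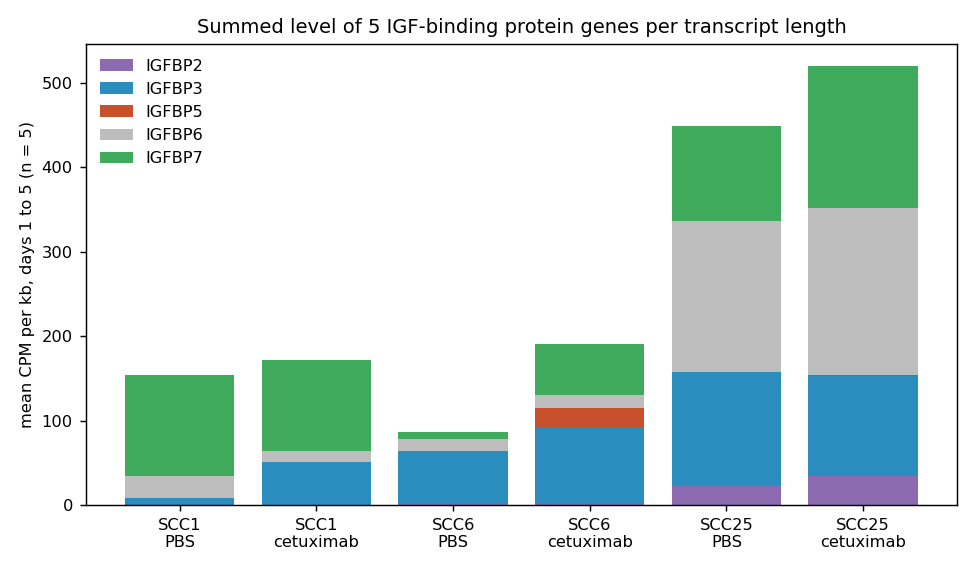
Mean CPM per kb of canonical transcript, stacked for 5 IGF-binding protein genes, in each line with PBS or cetuximab over days 1 to 5 (n = 5 libraries per bar, without error bars). IGFBP4 is not included. The sum rises from 86.3 to 191 CPM per kb in SCC6, where IGFBP5 takes 12.4% of the cetuximab bar and IGFBP7 31.8%.

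Over PBS days 0 to 5 the untreated cultures were not constant, and this was tested as a slope per day in each line. In SCC25 4 of 10 members rose with the day (13.4% of all genes were called, in either direction), in SCC6 2 of 9 fell, IGFBP5 left out (38.3%) and in SCC1 1 of 8 tested fell (3.22%). In SCC25, IGFBP3 was 169, 208, 251, 317, 444 and 541 CPM on days 0 to 5, and IGFBP2 was 17.4, 21.2, 22, 27.1, 36.4 and 52.5 CPM. Both climbed from each day to the next, by 1.27-fold per day for IGFBP3 (adjusted p = 6.7e-08, edgeR) and by 1.24-fold for IGFBP2 (adjusted p = 9.7e-06). IGFBP6 rose by 1.12-fold per day (adjusted p = 0.0024) and IRS2 by 1.06-fold (adjusted p = 0.04). IGFBP6 lost its call without day 5 (adjusted p = 0.078), and IRS2 without day 0 (0.36), 1 (0.089), 4 (0.054) or 5 (0.052).

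IGF1R fell over the PBS days in SCC1, by 1.09-fold per day from 104 CPM on day 0 to 73.3 on day 5 (adjusted p = 0.028), and in SCC6 by 1.06-fold per day (adjusted p = 0.022). IGF2R fell by 1.06-fold per day in SCC6 (adjusted p = 0.017). Each of these 3 calls was lost when some libraries were left out. They are days 0 (adjusted p = 0.07), 1 (0.12) and 4 (0.092) for IGF1R in SCC1, days 0 (0.12), 1 (0.059) and 4 (0.066) for IGF1R in SCC6, and days 0 (0.069), 4 (0.054) and 5 (0.058) for IGF2R.

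CTX was then compared with PBS in each line over days 1 to 5, with 5 libraries per treatment. In SCC1, IGF1R, INSR, IRS2 and IGFBP3 rose and IGFBP6 fell, 5 of the 8 members tested, beside 44.8% of all genes tested. In SCC6, IGF1R, IGF2R, IRS2, IGFBP3 and IGFBP7 rose, 5 of 9, beside 30.1% of all genes, and IGFBP5 was not tested. In SCC25, IGF2R and IGFBP7 rose, 2 of 10, beside 18.3%. IGFBP2 and IGFBP5 did not pass the filter on low counts in SCC1, and all members passed it in SCC6 and SCC25. Filtering kept a gene by its counts in either group, and no median over the members is given for that reason.

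**Figure D2:**
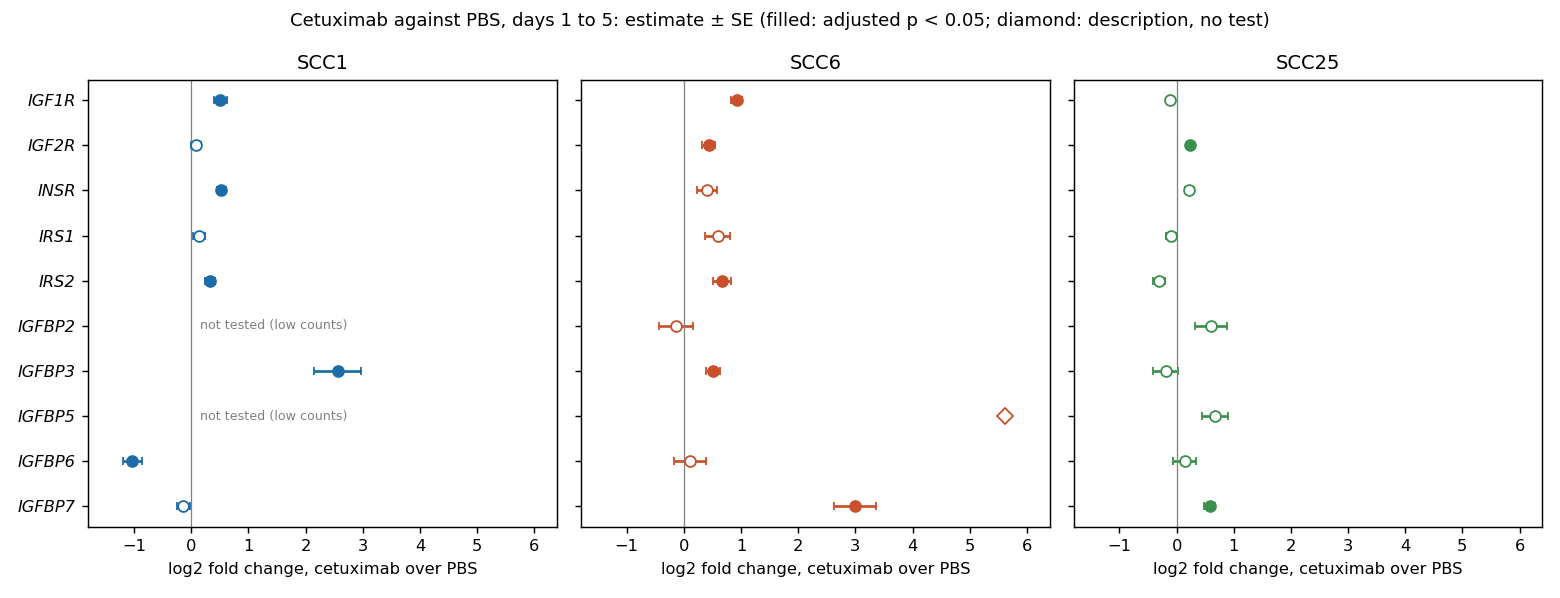
Log2 fold change of cetuximab over PBS, days 1 to 5, for the 10 genes in SCC1, SCC6 and SCC25. Points are edgeR estimates with bars of 1 SE, filled symbols have an adjusted p under 0.05, and the open diamond is IGFBP5 in SCC6, at 5.62, which is described and not tested.

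Among the receptors, IGF1R (chr15:99191768-99507759, plus strand, GRCh37) went up in SCC1 and SCC6. In SCC6 it was 150, 139, 124, 118 and 126 CPM on PBS days 1 to 5 and 266 (2a), 273 (2b), 262, 236 and 227 CPM with CTX. Every CTX library lay above every PBS library. The rise was 1.9-fold, 0.93 ± 0.095 on the log2 scale (SE, adjusted p = 4.8e-05, edgeR). In SCC1 it was 105, 97.8, 80.8, 75.6 and 73.3 CPM with PBS and 137, 134, 114, 112 and 115 CPM with CTX, again with no overlap, a rise of 1.42-fold (0.51 ± 0.11, adjusted p = 0.0019). In SCC25 IGF1R was lower with CTX on 5 of 5 days, 151 ± 6.34 against 162 ± 7.19 CPM, but the groups overlapped and the test did not call it (-0.11 ± 0.05, adjusted p = 0.15).

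IGF2R (chr6:160390114-160534539, plus strand) rose in SCC6 and SCC25. In SCC6 it was 224, 221, 204, 178 and 185 CPM with PBS and 214 (2a), 268 (2b), 295, 303 and 306 CPM with CTX. Library 2a lay within the PBS range and the other CTX libraries above it, and the rise was 1.35-fold (0.44 ± 0.11, adjusted p = 0.014). In SCC25 CTX levels of 464, 495, 503, 553 and 549 CPM all lay above the PBS levels of 419 to 463 CPM, a rise of 1.18-fold (0.24 ± 0.056, adjusted p = 0.013) that was not called with the flow cell as a covariate (0.15, adjusted p = 0.18). In SCC1, where IGF2R was highest, it was 637 ± 70.6 CPM with PBS and 669 ± 69.2 with CTX (0.08 ± 0.086, adjusted p = 0.47). AIRN, which lies on the opposite strand within the gene, had at most 3 counts in a library of days 1 to 5.

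INSR (chr19:7112266-7294425, minus strand) rose in SCC1, from 7.96, 9.14, 9.3, 7.78 and 8 CPM with PBS to 11.2, 11.7, 12.2, 12.4 and 12.8 CPM with CTX. The groups did not overlap, and the rise was 1.44-fold (0.53 ± 0.079, adjusted p = 0.00018). In SCC6 it was 10.6 ± 1.31 and 14.2 ± 3.68 CPM with PBS and CTX (0.40 ± 0.18, adjusted p = 0.11), and without library 2a it was called (0.51, adjusted p = 0.021), while adjusting for flow cell gave 0.12 (adjusted p = 0.61). In SCC25 it was 8.23 ± 0.521 and 9.63 ± 0.57 CPM, with every CTX library above every PBS library. That change of 0.22 ± 0.076 was not called (adjusted p = 0.063) but was called by DESeq2 (0.027), with the day as a replicate block (adjusted p = 0.038), with day 0 added to PBS (0.04) and without PBS day 5 (0.048) or CTX day 3 (0.04).

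IRS2 (chr13:110405042-110438930, minus strand), an adaptor of both kinase receptors, rose in SCC1 and SCC6. In SCC6 it was 55.3, 51.1, 55.2, 61.4 and 65.9 CPM with PBS and 61.4 (2a), 92.3 (2b), 106, 118 and 85.7 CPM with CTX. Only 2a fell within the PBS range, and the rise was 1.59-fold (0.67 ± 0.15, adjusted p = 0.0066). In SCC1 it rose by 1.26-fold (0.33 ± 0.082, adjusted p = 0.0056), from 19.9 to 25 CPM across PBS libraries to 26.3 to 32.6 CPM across CTX libraries. In SCC25 it was 34.6 and 37.9 CPM on CTX days 1 and 2 and 27.2, 27.9 and 26.8 on days 3 to 5, against 34.3, 36.1, 42.7, 38.6 and 39.5 with PBS. The CTX libraries of days 3 to 5 lay below all PBS libraries, and these are also the CTX libraries on another flow cell than all PBS libraries of this line. The change of -0.31 ± 0.11 was not called (adjusted p = 0.06), but was without CTX day 2 (-0.39, adjusted p = 0.017) and, at the threshold, without CTX day 1 (-0.34, adjusted p = 0.05), and by DESeq2 (-0.31, adjusted p = 0.031). Adjusting for flow cell left -0.08 (adjusted p = 0.65).

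IRS1 (chr2:227596028-227664536, minus strand), the other adaptor, passed the test in no line. In SCC6 it was 25.6, 13.3, 12.3, 16.7 and 22.3 CPM with PBS and 29.4 (2a), 23.6 (2b), 20.1, 35.5 and 28.6 CPM with CTX. The groups overlapped, and the difference was 0.59 ± 0.22 (adjusted p = 0.059). It was called without PBS day 1 (0.75, adjusted p = 0.014) or CTX day 3 (0.67, adjusted p = 0.046), by DESeq2 (0.57, adjusted p = 0.04) and after adjusting for flow cell (0.58, adjusted p = 0.043). With day 0 added to PBS it was 0.38 (adjusted p = 0.29). It was 8.21 ± 0.796 and 8.97 ± 1.2 CPM in SCC1 (0.14 ± 0.11, adjusted p = 0.31) and 75.9 ± 5.48 and 71.1 ± 9.17 CPM in SCC25 (-0.10 ± 0.091, adjusted p = 0.49).

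**Figure D3:**
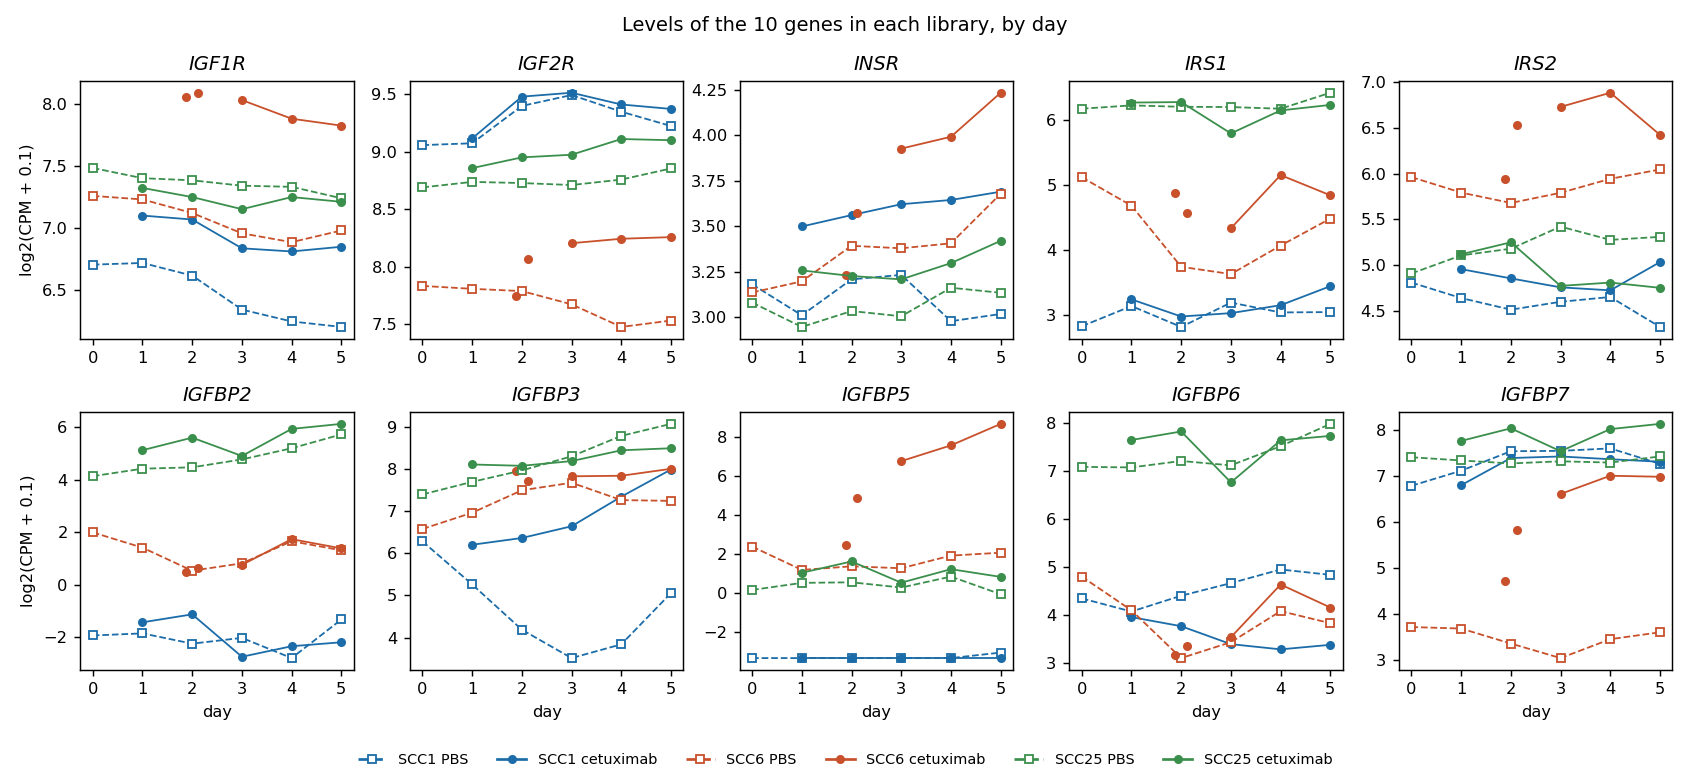
Level of each of the 10 genes as log2(CPM + 0.1) against the day, with PBS (open squares, dashed) and cetuximab (filled circles) in SCC1, SCC6 and SCC25, 1 point per library. The SCC6 cetuximab libraries 2a and 2b share day 2 and are not joined by a line. IGFBP5 in SCC6 with cetuximab is lowest in 2a, at 5.36 CPM, and highest on day 5, at 405 CPM, while in SCC25 IGFBP2 and IGFBP3 climb with PBS alone.

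IGFBP5 (chr2:217536828-217560272, minus strand), a binding protein that attaches to extracellular matrix, changed more in SCC6 than any other member. It was 5.12, 2.18, 2.49, 2.32, 3.69 and 4.1 CPM on PBS days 0 to 5. With CTX it was 5.36 (2a), 29.2 (2b), 108, 189 and 405 CPM. The lowest CTX library was 2a, close to PBS day 0 at 5.12, and the highest was day 5. The means of days 1 to 5 were 2.96 ± 0.877 and 147 ± 161 CPM, and the fitted difference was 49.1-fold, or 5.62 on the log2 scale. On days 4 and 5 the CTX mean was 76.3 times the PBS mean, and over days 1 to 3 20.3 times. On the flow cell that holds PBS days 2 to 5 and CTX 2a, 2b and day 3, the PBS libraries were 2.32 to 4.1 CPM and the CTX libraries 5.36 to 108 CPM. With the flow cell as a covariate and with the other alternatives the log2 difference ran from 3.88 to 5.92. As these values took part in choosing the genes, no test is given.

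In SCC25 IGFBP5 was 1.34, 1.37, 1.12, 1.7 and 0.862 CPM with PBS and 1.96, 2.98, 1.35, 2.24 and 1.68 CPM with CTX. It was higher with CTX on 5 of 5 days but the groups overlapped, and the difference of 1.6-fold (0.68 ± 0.23) was not called (adjusted p = 0.056). It was called by DESeq2 (0.68, adjusted p = 0.022), with the day as a replicate block (0.66, adjusted p = 0.017), with day 0 added to PBS (0.74, adjusted p = 0.028), with the flow cell as a covariate (0.96, adjusted p = 0.045), and without PBS day 4 (0.80, adjusted p = 0.044) or CTX day 3 (0.80, adjusted p = 0.02). In SCC1 no CTX library had a count. DIRC3-AS1, annotated over the same place on the opposite strand, had at most 2 counts in a library of days 1 to 5.

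IGFBP7 (chr4:57896939-57976551, minus strand), a matrix protein with weak IGF binding, also rose in SCC6. It was 12.8, 10.2, 8.18, 10.9 and 12.1 CPM with PBS and 26.3 (2a), 56.4 (2b), 97.3, 128 and 126 CPM with CTX. All CTX libraries lay above all PBS libraries, and the rise was 7.92-fold (2.99 ± 0.37, adjusted p = 0.00016). In SCC25 it rose by 1.49-fold (0.58 ± 0.097, adjusted p = 0.0022), from 161, 154, 159, 156 and 171 CPM to 216, 261, 185, 258 and 279 CPM. In SCC1 it was 171 ± 23.9 CPM with PBS and 154 ± 24.4 with CTX (-0.14 ± 0.12, adjusted p = 0.37). POLR2B and IGFBP7-AS1 overlap IGFBP7 on the opposite strand. In SCC6 POLR2B was 171 ± 13.3 CPM with PBS and 138 ± 24 with CTX (adjusted p = 0.059), and IGFBP7-AS1 had at most 20 counts.

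A list of 9 fibroblast markers was summed and read beside IGFBP5 and IGFBP7. In SCC6, where both of these were higher with CTX, the sum ranged from 3.44 to 6.8 CPM with PBS and from 10.1 to 116 CPM with CTX. COL1A1 reached 88.4 CPM, COL3A1 17.8 and PDGFRB 8.37 with CTX, against at most 6.35, 0.104 and 0.133 with PBS. The other 6 genes stayed low in SCC6, since COL1A2, DCN, LUM, PDGFRA and THY1 were under 0.5 CPM in every library and FAP was at most 1.01 CPM. In SCC25 the sum was 178 to 227 CPM with PBS and 292 to 459 with CTX. There COL1A2, COL3A1, DCN, LUM and FAP were called higher, and COL1A1 was not called (adjusted p = 0.091, edgeR). THY1 was called lower, from 2.51 ± 0.608 to 1.59 ± 0.395 CPM (adjusted p = 0.042). PDGFRA (-0.68, adjusted p = 0.052) and PDGFRB (0.0083, adjusted p = 0.99) were not called. In SCC1 the sum was 51.4 to 72.9 CPM with PBS and 96.3 to 221 with CTX, mainly COL1A1, COL1A2 and FAP. In SCC1 this sum rose while IGFBP7 was not called and IGFBP5 had no count with CTX. The 4 leukocyte markers were under 1 CPM in every library, and the sum of 5 endothelial markers in SCC6 was at most 1.17 CPM. The part of other cells in the results was not tested, and in bulk RNA fewer cells of a type and less RNA per cell cannot be told apart.

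**Figure D4:**
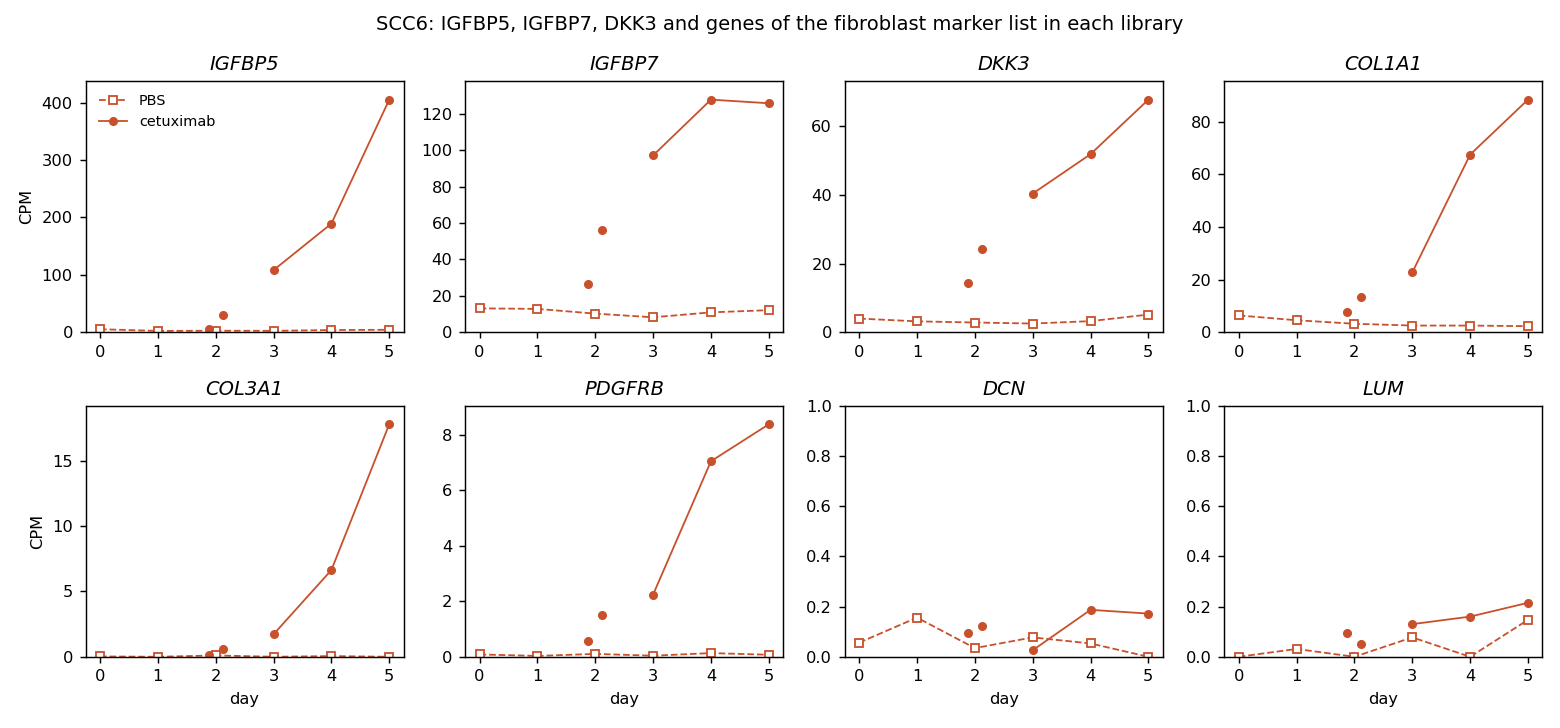
CPM of IGFBP5, IGFBP7, DKK3 and 5 genes of the fibroblast marker list in SCC6 against the day, with PBS (open squares, dashed) and cetuximab (filled circles), 1 point per library and a separate linear axis from 0 in each panel. COL1A1, COL3A1 and PDGFRB climb with the day under cetuximab, up to 88.4, 17.8 and 8.37 CPM, while DCN and LUM stay under 0.5 CPM.

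IGFBP3 (chr7:45951844-45961473, minus strand), the main carrier of IGFs in blood, had the largest change of any tested member in SCC1. With PBS it was 38.3, 18.1, 11.3, 14.2 and 33.2 CPM on days 1 to 5 and with CTX 73.7, 82.4, 100, 163 and 255 CPM. The groups did not overlap, and the rise was 5.9-fold (2.56 ± 0.41, adjusted p = 3e-04). PBS day 0, which is outside this comparison, was 78 CPM, above CTX day 1. PBS day 5 shared its flow cell with all CTX libraries and was 33.2 CPM, below each of them, whereas with the flow cell as a covariate the rise was 2.04 and not called (adjusted p = 0.083). In SCC6 IGFBP3 was 125, 181, 205, 154 and 152 CPM with PBS and 247 (2a), 211 (2b), 228, 230 and 258 CPM with CTX, a rise of 1.42-fold (0.51 ± 0.13, adjusted p = 0.011) with no overlap. In SCC25 the PBS libraries climbed from 208 CPM on day 1 to 541 on day 5, and the CTX libraries ran from 277, 271 and 293 to 350 and 362 CPM. CTX was higher on days 1 and 2 and lower on days 3, 4 and 5, and over all days the difference was -0.19 ± 0.22 (adjusted p = 0.6).

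IGFBP6 (chr12:53491220-53496129, plus strand), which prefers IGF2 as its ligand, was the one member that fell. In SCC1 it was 16.7, 21, 25.2, 30.7 and 28.4 CPM with PBS and 15.4, 13.5, 10.4, 9.64 and 10.3 CPM with CTX. All CTX libraries lay below all PBS libraries, and the fall was 2.04-fold (-1.03 ± 0.17, adjusted p = 0.00031). In SCC6 it was 13.4 ± 3.76 and 14.6 ± 6.61 CPM (0.11 ± 0.29, adjusted p = 0.82), and in SCC25 170 ± 48.9 and 188 ± 46.1 CPM (0.14 ± 0.21, adjusted p = 0.68). In SCC25 CTX day 3 stood apart at 108 CPM, below the other CTX libraries at 198 to 225 CPM.

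IGFBP2 (chr2:217497551-217529159, plus strand), which lies 7.7 kb from IGFBP5 on the other strand, was called in no line. In SCC25 it was 21.2, 22, 27.1, 36.4 and 52.5 CPM with PBS and 34.6, 48.2, 29.7, 60.7 and 69.3 CPM with CTX. It was higher on 5 of 5 days by 1.52-fold, but the groups overlapped (0.60 ± 0.28, adjusted p = 0.15). With the day as a replicate block it was called (0.62, adjusted p = 0.0093), as it was without PBS day 5 (0.88, adjusted p = 0.033), while adjusting for flow cell gave 0.38 (adjusted p = 0.57). In SCC6, where its neighbour IGFBP5 ran from 5.36 to 405 CPM with CTX, IGFBP2 was 1.29 (2a), 1.46 (2b), 1.59, 3.23 and 2.51 CPM, against 2.56, 1.35, 1.66, 3.05 and 2.38 with PBS (-0.13 ± 0.3, adjusted p = 0.77). The protein-coding genes on the outer sides were RPL37A, 53.6 kb beyond IGFBP2, which fell by 0.48 on the log2 scale in SCC6 (adjusted p = 0.0054), and TNP1, 163.9 kb beyond IGFBP5, with no count in any library of days 1 to 5.

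The make-up of the 5 binding protein genes per transcript length, with IGFBP4 left out, moved accordingly. In SCC6 the sum of the 5 genes went from 86.3 to 191 CPM per kb, in which the mean of IGFBP3 went from 62.6 to 89.9, of IGFBP7 from 7.57 to 60.7 and of IGFBP5 from 0.474 to 23.6. In SCC1 the share of IGFBP3 went from 5.7% to 30% and that of IGFBP6 from 16.6% to 7.26%. In SCC25 IGFBP7 went from 25% to 32.3% and IGFBP3 from 30.1% to 22.9%, while IGFBP6 stayed the largest at 38.1%.

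Whether the change with CTX differed between lines was tested in the fit of 30 libraries as a line-by-treatment term. The difference was called for 5 of 9 members between SCC1 and SCC6 (19.3% of all genes), for 4 of 9 between SCC1 and SCC25 (8.52%) and for 4 of 9 between SCC6 and SCC25 (17.5%). IGFBP7 had the largest tested differences with SCC6. Its log2 change was 3.15 lower in SCC1 than in SCC6 (adjusted p = 1e-07) and 2.42 higher in SCC6 than in SCC25 (adjusted p = 1e-05). IGFBP3 rose more in SCC1 than in SCC6, by 2.03 (adjusted p = 0.00093), and than in SCC25, by 2.73 (adjusted p = 6.7e-05). IGF1R went up more in SCC6 than in SCC1 (0.44 on the log2 scale, coded as -0.44, adjusted p = 0.011) and than in SCC25 (1.05, adjusted p = 7.9e-07), and more in SCC1 than in SCC25 (0.61, adjusted p = 0.0013). IRS2 differed between SCC6 and SCC25 by 0.99 (adjusted p = 0.00018) and between SCC1 and SCC25 by 0.63 (adjusted p = 0.021). IGFBP6 fell in SCC1 against SCC6 by -1.17 (adjusted p = 0.019) and against SCC25 by -1.19 (adjusted p = 0.028). IRS1 differed between SCC6 and SCC25 by 0.70 (adjusted p = 0.026) and IGF2R between SCC1 and SCC6 by -0.38 (adjusted p = 0.038). For IGFBP5 the fitted difference between SCC6 and SCC25 was 4.95, with no test.

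With the flow cell as a covariate, 7 of these 13 differences were no longer called. Between SCC1 and SCC6 they are IGF1R (-0.34, adjusted p = 0.18), IGF2R (-0.23, 0.48), IGFBP3 (1.62, 0.14) and IGFBP6 (-0.95, 0.18). Between SCC1 and SCC25 they are IRS2 (0.63, adjusted p = 0.16) and IGFBP3 (2.38, 0.057), and between SCC6 and SCC25 IRS1 (0.57, 0.14). All 7 kept their sign. The differences of IGFBP7 with SCC6, of IGF1R and IRS2 between SCC6 and SCC25 and of IGF1R and IGFBP6 between SCC1 and SCC25 kept their call there, IRS2 at 0.65 (adjusted p = 0.036). With day 0 added to PBS, IGF2R (adjusted p = 0.089) and IGFBP6 (0.091) between SCC1 and SCC6, IRS2 between SCC1 and SCC25 (0.059) and IRS1 between SCC6 and SCC25 (0.2) were not called. With DESeq2 size factors IGF2R was not called either (-0.37, adjusted p = 0.051). Left-out libraries also mattered, since the IGF2R difference was lost without any of 12 of the 30 libraries (adjusted p up to 0.085), those of SCC1 PBS days 2, 3 and 4, SCC1 CTX days 1, 4 and 5, SCC6 PBS days 3, 4 and 5 and SCC6 CTX days 3, 4 and 5. The IGFBP6 difference between SCC1 and SCC25 was lost without any of 10 (up to 0.066), SCC1 PBS days 4 and 5, SCC1 CTX days 3, 4 and 5, SCC25 PBS days 1, 2 and 3 and SCC25 CTX days 2 and 5. That of IGFBP6 between SCC1 and SCC6 was lost without SCC6 CTX day 4 (0.067), and that of IRS1 without SCC6 PBS day 2 (0.06) or 3 (0.058), SCC6 CTX day 4 (0.075), SCC25 PBS day 5 (0.051) or SCC25 CTX day 3 (0.055).

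Days 1 to 3 were also set against days 4 and 5 to ask whether the change with CTX grew. No gene of the whole table was called for a difference between the periods in SCC1, SCC6 or SCC25 (0% each, adjusted p by edgeR), although 1458, 5626 and 599 genes had an unadjusted p under 0.05, and DESeq2 called 31, 2838 and 3. In these values IGFBP3 in SCC1 was 3.78 times PBS over days 1 to 3 and 8.82 times over days 4 and 5, and IGFBP6 0.624 and 0.338 times. IGFBP7 in SCC6 was 5.77 and 11.1 times PBS, whereas IGF1R in SCC6 was 1.94 and 1.9 times. The period differences of IGFBP3 (1.24 on the log2 scale, adjusted p = 0.7) and IGFBP6 (-0.87, adjusted p = 0.65) in SCC1 and of IGFBP7 (0.98, adjusted p = 0.27) and IGF2R (0.52, adjusted p = 0.11) in SCC6 were called only in fits with no filter on low counts.

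The other ligands, binding proteins and regulators of the axis were read from a list of 16 genes. In SCC1 3 of 12 tested rose and 4 fell, in SCC6 3 of 11 rose and 3 fell, and in SCC25 1 of 12 rose and 2 fell, beside 44.8%, 30.1% and 18.3% of all genes called in either direction. The median log2 changes were 0.07, 0.34 and -0.20, against 0.0211, 0.00394 and 0.00618 over all genes. Medians of this and the following lists cover only genes that passed the filter on low counts in either group. They are descriptions for that reason. IGF1 had no count in any library of days 1 to 5. IGF2, the ligand of IGF1R and IGF2R, was 62.8, 27.4, 22.6, 20.7 and 27.1 CPM in SCC1 with PBS and 171, 180, 218, 299 and 531 CPM with CTX. The groups did not overlap and the rise was 8.77-fold (3.13 ± 0.39, adjusted p = 4e-05). In SCC6 it was lower with CTX, 266 ± 29.4 against 465 ± 156 CPM, by 1.77-fold (-0.82 ± 0.21, adjusted p = 0.011), although the groups overlapped. With PBS it was 587, 631, 500, 321 and 284 CPM on days 1 to 5. With CTX it was 228 (2a), 251 (2b), 264, 284 and 304 CPM. The gap was thus widest on the early days, as PBS declined, and on day 5 CTX was above PBS. In SCC25 it was 88.2 ± 25.6 and 55.5 ± 19.6 CPM (adjusted p = 0.072). The readthrough gene INS-IGF2 shares sequence with IGF2, so that the split of their reads is uncertain, and it held at most 10 counts in a library. The SCC6 value of IGF2 was named after it was seen, for comparison with SCC1.

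HTRA1, a secreted protease that cleaves IGFBP5 among other proteins, rose in all 3 lines, by 2.26-fold in SCC1 (adjusted p = 0.00019), 2.53-fold in SCC6 (adjusted p = 0.019) and 1.73-fold in SCC25 (adjusted p = 0.00053). Its level in SCC6 was low, 1.41 ± 0.523 CPM with PBS and 3.6 ± 1.88 with CTX. PRSS23, a secreted serine protease, rose in SCC6 by 2.66-fold, from 64.5 ± 9.3 to 174 ± 18 CPM (adjusted p = 1.4e-05), and fell in SCC1 by 1.19-fold (adjusted p = 0.012). IGFBP4, a further IGF-binding protein, fell in SCC1 by 1.49-fold, from 203 ± 26.1 to 135 ± 9.08 CPM (adjusted p = 0.00011). STC2, an inhibitor of the IGFBP4 protease PAPPA, fell in SCC25 by 1.59-fold (adjusted p = 3e-04). IGF2BP2, an RNA-binding protein of IGF2 mRNA, fell in all 3 lines, in SCC1 by 1.37-fold (adjusted p = 0.00011), in SCC6 by 1.32-fold (adjusted p = 0.0084) and in SCC25 by 1.13-fold (adjusted p = 0.034).

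**Figure D5:**
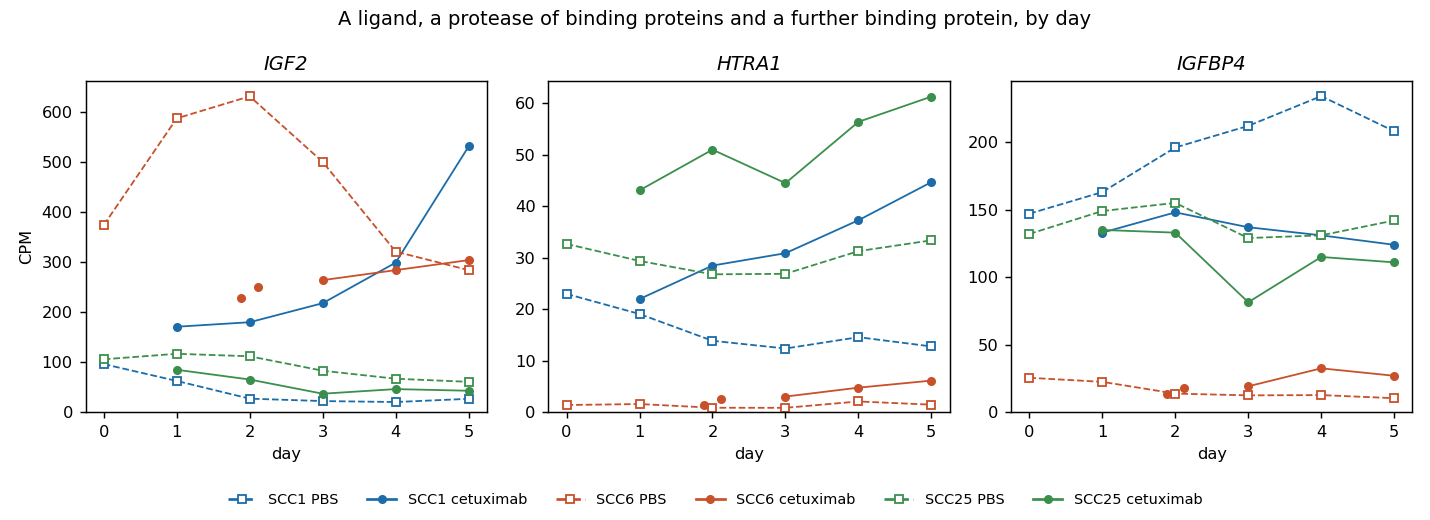
CPM of the ligand IGF2, the protease HTRA1 and the binding protein IGFBP4 against the day in SCC1, SCC6 and SCC25, with PBS (open squares, dashed) and cetuximab (filled circles), 1 point per library on linear axes from 0. In SCC1 IGF2 goes up to 531 CPM with cetuximab while PBS stays at 20.7 to 62.8 CPM on days 1 to 5.

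Of 16 adaptors and negative regulators of the receptors, 4 of 15 tested rose and 6 fell in SCC1, 3 rose and 0 fell in SCC6, and 2 rose and 4 fell in SCC25, beside the same 44.8%, 30.1% and 18.3% of all genes. The medians were -0.14, 0.09 and -0.17, against 0.0211, 0.00394 and 0.00618 over all genes. GRB10, an adaptor that binds to and damps INSR and IGF1R, rose in SCC6 by 1.49-fold (adjusted p = 0.019) and fell in SCC25 by 1.32-fold (adjusted p = 0.0032). GAB1, a docking protein, rose in SCC1 by 1.52-fold (adjusted p = 1.4e-05) and in SCC25 by 1.37-fold (adjusted p = 0.012). CAV1, the caveolar scaffold in which INSR and IGF1R are found, rose in SCC6 from 292 ± 25.5 to 928 ± 211 CPM (3.14-fold, adjusted p = 2.2e-05). SOCS2, which limits growth hormone and cytokine signalling, fell in SCC1 by 1.44-fold (adjusted p = 0.0013) and in SCC25 by 1.31-fold (adjusted p = 0.029).

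Of 26 genes of PI3K, AKT and TSC, 7 of 25 tested rose and 6 fell in SCC1, 5 of 26 rose and 3 fell in SCC6, and 3 of 25 rose and 1 fell in SCC25. The 13 of 25, 8 of 26 and 4 of 25 called lie near the 44.8%, 30.1% and 18.3% of all genes, so the list showed nothing particular by its counts. The medians were 0.03, 0.11 and 0.01, against 0.0211, 0.00394 and 0.00618 over all genes. PIK3IP1, an inhibitor of PI3K, rose in all 3 lines, in SCC1 by 1.53-fold (adjusted p = 0.0025), in SCC6 by 3.41-fold to 3.71 ± 2.26 CPM (adjusted p = 0.0049), and in SCC25 by 1.66-fold (adjusted p = 0.00035). PIK3R1, a regulatory subunit of PI3K that docks on IRS proteins, rose in SCC1 by 1.91-fold (adjusted p = 1e-04). PIK3CD, a catalytic subunit, fell in SCC1 by 1.74-fold (adjusted p = 0.00023) and rose in SCC6 by 1.74-fold (adjusted p = 0.01). EIF4EBP1, a translation repressor that mTOR inactivates, fell in SCC1 by 1.61-fold (adjusted p = 2e-05) and in SCC25 by 1.49-fold (adjusted p = 0.023).

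FOXO factors are held out of the nucleus by AKT, and INSR and IRS2 are known as FOXO targets. Of 19 listed FOXO factors and targets, 10 of 17 tested rose and 1 fell in SCC1, 7 of 18 rose and 3 fell in SCC6, and 6 of 18 rose and 1 fell in SCC25, beside 44.8%, 30.1% and 18.3% of all genes called. The medians were 0.35, 0.22 and 0.18, against 0.0211, 0.00394 and 0.00618 over all genes. KLHL24, a substrate adaptor of an E3 ligase, rose in all 3 lines, by 2.13-fold in SCC1 (adjusted p = 2e-07), 2.07-fold in SCC6 (adjusted p = 0.015) and 1.51-fold in SCC25 (adjusted p = 0.017). FBXO32, an F-box protein, rose in SCC1 by 2.08-fold (adjusted p = 1.3e-05) and in SCC25 by 1.58-fold (adjusted p = 0.00042). TRIB1, a pseudokinase, fell in all 3 lines, by 4.42-fold in SCC1, 1.71-fold in SCC6 and 1.54-fold in SCC25 (adjusted p = 2.5e-06, 0.00016 and 0.0019).

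Last, the genes most alike in pattern were named by Pearson's r of log2(CPM + 0.1) over the 33 libraries, after the mean of each line was removed. These values describe libraries that share lines, days and treatments, and no p is given. IGFBP5 had at most 1 count per library in SCC1 and at most 2.98 CPM in SCC25. Its r therefore rests mainly on the SCC6 CTX libraries, at 5.36 to 405 CPM, which took part in choosing the genes. IGFBP5 and IGFBP7 were near each other (r = 0.947), and both near DKK3 (0.947 and 0.977), a secreted protein of the Dickkopf family. In SCC6 DKK3 was 3.36 ± 1.03 CPM with PBS and 39.7 ± 21.4 with CTX. It was named for its likeness over these same libraries, so its change is described and not tested. HMCN1, a matrix protein, followed for IGFBP5 (0.943), and MCAM, an adhesion molecule, for IGFBP7 (0.96). IGFBP3 was most like ALPP (0.9), DNAJC15 (0.899) and TIMP3 (0.888), IGF1R like ZNF618 (0.925), CASC10 (0.923) and PTCH1 (0.913), and INSR like CPE (0.931). IGFBP2 had no close match, its highest r being 0.628, with AP1M2. Between members, IGFBP3 and IGFBP6 ran most opposite (-0.529).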

How the data were processed

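RNA of 33 cultures was sequenced as poly(A)-selected, stranded libraries. The authors quantified transcripts with Salmon (0.8.2 in the submitters' processing notes, which also name hg19 and GRCh37) and imported them with tximport. The table as deposited holds estimated counts per gene symbol, not normalised between libraries, and the annotation release is not given in the sources used here. No column was left unmapped (0).

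Counts were rounded and tested with edgeR 4.0.16 (R 4.3.3), using filterByExpr, TMM factors and the quasi-likelihood F test, two-sided, with Benjamini-Hochberg adjustment over all genes tested. A gene is called at an adjusted p below 0.05. DESeq2 1.42.0 was an alternative, together with DESeq2 size factors, no filter, a minimum absolute log2 fold change of 1, the flow cell as a covariate, day 0 added to PBS, the day as a replicate block and each library left out in turn. Fits covered CTX against PBS per line, all 30 libraries of days 1 to 5 for line terms, PBS days 0 to 5 for slopes, and 4 groups of treatment and period. The p-values measure the spread between libraries of different days, which may be partly technical, and limits from counts cover counting error only. CPM used TMM over all libraries, with 0.1 added for logs. The fits were run on simulated data with independent libraries, a fixed spread and no pairing or flow cell effect. The period fits had no pass mark there. How the fits behave with such effects was not tested.

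The members, the gene and marker lists and the tests were chosen with earlier results of these data known. Named genes are the members, at most 3 called genes per list and line that changed most (average log2 CPM 1 or more, 1 direction on all days), the 3 genes most like each member, and the neighbours of IGFBP2 and IGFBP5. IGF2 in SCC6 and SCC25, PRSS23, IGF2BP2 and PIK3IP1 in SCC1 and genes that overlap a member were added after their values were seen. Positions and transcript lengths came from GENCODE v44 on GRCh37, which need not be the authors' annotation, and promoters from RefSeq on GRCh38.p14. Python packages drew the figures and searched the promoters.

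Days pair the libraries, since the labels give each line shared days. The correlation across genes of the deviations from treatment means, PBS with CTX of the same day, was 0.11 to 0.39 in SCC1 and 0.22 to 0.59 in SCC25, and in SCC6 -0.21, 0.58, -0.18 and -0.0035 for days 1 and 2 together, 3, 4 and 5. Libraries of a group were compared by chi-square per gene, and every pair differed beyond sampling noise (at least 5.28).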

Additional observations from a re-analysis of the deposited data

Results flagged for a closer look

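Among 58 sets of 5 libraries (a member in a line and treatment over days 1 to 5), 3 had a library far from the other 4 by Dixon's ratio, and chance gives about 1 such set in 20. IRS1 was 85.5 CPM on PBS day 5 in SCC25, above the others at 72.1 to 74.7. IGFBP6 was 108 CPM on CTX day 3 in SCC25, below 198 to 225. IGFBP7 was 111 CPM on CTX day 1 in SCC1, below 158 to 171.

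The change with CTX differed between lines by the line-by-treatment test for 13 pairs of gene and lines. On the log2 scale, as the first line minus the second, these were between SCC1 and SCC25 IGF1R 0.61, IRS2 0.63, IGFBP3 2.73 and IGFBP6 -1.19, between SCC1 and SCC6 IGF1R -0.44, IGF2R -0.38, IGFBP3 2.03, IGFBP6 -1.17 and IGFBP7 -3.15, and between SCC6 and SCC25 IGF1R 1.05, IRS1 0.70, IRS2 0.99 and IGFBP7 2.42.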

How the results depend on the processing

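Of the member values, 76 of 81 kept direction and side of the threshold with DESeq2, 80 of 81 with DESeq2 size factors, 76 of 81 with no filter, 61 of 69 with day 0 added to PBS, 50 of 71 with the flow cell as a covariate and 1537 of 1598 when a library was left out. The untested IGFBP5 change in SCC6 is among them, counted as kept if it moved by no more than the SD of its daily log2 ratios. So are the IGFBP5 contrasts between untreated lines, which are not used as tests above. Outside CTX against PBS, only values called in the main fit or in an alternative with no library left out were counted. With CTX against PBS, no called member lost its call when a library was left out, and with the flow cell IGFBP3 in SCC1 and IGF2R in SCC25 did. Where a setting changed a value, the cause was not tested. Depth limits IGFBP2 in SCC1 and IGFBP5 in SCC1 and SCC25, and leaving out libraries of SCC6 days 4 and 5 removes the deepest.

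Paired by day, as a replicate block, members called in SCC25 were 5 and not 2, and the block changed no other call in CTX against PBS. DESeq2 called 5 and day 0 added to PBS 4 there. The shares of all genes called in these 3 settings are not given here, so these counts are not read as a result about the members.

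With the flow cell as a covariate, genes called were 4197 of CTX against PBS in SCC1 and 1417 in SCC25, 2359, 949 and 1748 for the line differences of SCC1 with SCC6, SCC1 with SCC25 and SCC6 with SCC25, 8605 for PBS SCC6 against SCC25 and 209 for the period difference in SCC25, and members called were 1 and 2 for the first 2 line differences. IGFBP7 in SCC1 turned to 0.0266, IGFBP6 in SCC6 to -0.32, IRS1 in SCC25 to 0.0262, and for PBS SCC6 against SCC25 IGF1R turned to 0.26, and the untested fitted value of IGFBP5 turned from 1.22 to -1.82. The PBS libraries of SCC6 and SCC25 share no flow cell, so adjusted values of that contrast rest on few linking libraries. The fit with the flow cell could not be made for periods in SCC6. Day 0 added to PBS turned IGFBP6 in SCC6 to -0.13 and left 3 members for SCC1 against SCC6, with the share of all genes not given here.

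A minimum log2 change of 1 left 1572, 1687 and 300 genes and 2, 1 and 0 members in SCC1, SCC6 and SCC25. With DESeq2 the SCC1 PBS slope had 1528 genes and 2 members, and the period differences had 31, 2838 and 3 genes. With no filter these had 202, 3366 and 7 genes, and 2 members in SCC1 (IGFBP3 and IGFBP6) and 2 in SCC6 (IGF2R and IGFBP7).

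With each library left out, genes called ranged from 2193 to 4006 in SCC25 (2193 without CTX day 4, 2221 without CTX day 5, 2204 and 2278 without PBS days 2 and 3), and members from 2 to 4 (4 without PBS day 5 or CTX day 3). For the line difference of SCC1 with SCC6, genes called ranged from 3592 to 5303 and members from 3 (without SCC6 CTX day 4) to 6. PBS slopes ranged from 25 (without day 1) to 1732 (without day 5) genes and 0 to 4 members in SCC1, from 2160 (without day 0) to 6902 genes and 0 to 3 members in SCC6, and from 1223 (without day 0) to 2480 genes and 2 to 4 members in SCC25. Period differences ranged from 0 to 1424 genes in SCC6 (1424 without PBS day 1, 973 without PBS day 3) and from 0 to 2 in SCC25. In SCC6 IGFBP6 ranged from -0.17 to 0.24 and IGFBP2 from -0.37 to 0.0121, and in SCC25 IGFBP3 from -0.32 to 0.0369.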
